A study of Mus musculus with 4 samples.

Results

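A list of 10 genes with a published role in the fusion of myoblasts was followed in mouse primary myotubes treated with EDA-A2: Mymx (myomixer), Mymk (myomaker), the cadherins Cdh15 and Cdh2, the junctional adhesion molecules Jam2 and Jam3, the engulfment genes Adgrb1, Elmo2 and Dock1, and the ferlin Myof. They are 10 of the 53647 genes counted. The list was chosen by name with its measured values known, namely the fold changes between EDA-A2-treated and control myotubes, and it was compared to ask whether Mymx moved with the rest. These differences between treated and control libraries are therefore given as a description, with no p-value. Of the 10 genes, 9 had enough reads to enter the fit across all genes, and Adgrb1 did not.

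EDA-A2 is a TNF-family form of ectodysplasin that signals through the receptor EDA2R. Primary myoblasts of genotype WT were taken from limb muscles of pups aged 2 to 3 days, differentiated into myotubes in horse serum, and either treated with recombinant EDA-A2 at 250 ng/mL for 24 h or left as control, 2 libraries each, with harvest at 72 h of differentiation. Neither the labels nor the methods describe what the control wells received or how many pups went into a culture. The methods state in general that n counts biological replicates, but neither they nor the labels say whether these libraries came from separate cultures. P-values then measure only the spread between these libraries, which may be technical.

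Skeletal muscle fibres form when mononucleated myoblasts recognize each other, align through adhesion molecules and merge their membranes into a syncytium. Myomaker, a multipass membrane protein, and myomixer, a micropeptide, act together as the muscle fusogens, with myomaker needed for the mixing of outer membrane leaflets and myomixer for the opening of the fusion pore. Cadherins and junctional adhesion molecules hold the partner cells together. Recognition of exposed phosphatidylserine passes through ELMO and Dock proteins to Rac and the actin cytoskeleton, and ferlins act in membrane trafficking and repair. Transcription of the fusogen genes is classically linked to myogenic bHLH factors, which bind E-boxes.

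The promoters of Mymk and Cdh15 are shown because Mymk is the functional partner of Mymx and Cdh15 was the member that differed most in the lower direction. Each runs from 250 bases before to 50 bases after the annotated start, 5′ to 3′ on the gene's own strand, and was read from the GRCm39 genome. Capitals mark every CANNTG, the E-box core. The Mymk stretch is chr2:26962179-26962478 (minus strand) and that of Cdh15 is chr8:123574455-123574754 (plus strand).
Mymk: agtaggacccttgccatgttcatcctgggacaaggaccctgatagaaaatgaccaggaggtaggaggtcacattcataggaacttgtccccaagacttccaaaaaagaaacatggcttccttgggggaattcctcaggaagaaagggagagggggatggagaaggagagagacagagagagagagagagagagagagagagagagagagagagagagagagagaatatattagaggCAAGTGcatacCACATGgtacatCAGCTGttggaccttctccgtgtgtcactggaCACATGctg
Cdh15: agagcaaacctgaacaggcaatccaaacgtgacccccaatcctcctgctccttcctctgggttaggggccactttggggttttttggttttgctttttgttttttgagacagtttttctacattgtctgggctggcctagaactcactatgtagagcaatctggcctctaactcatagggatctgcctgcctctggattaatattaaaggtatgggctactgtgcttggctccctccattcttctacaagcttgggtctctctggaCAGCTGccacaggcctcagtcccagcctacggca

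Both promoters held the palindromic E-box CAGCTG, which began at base 10 of the transcript in Mymk and at base 17 in Cdh15. Of the 9 promoters searched, those of the list without Mymx, these were the 2 with CAGCTG, which 14.9% of the 21613 protein-coding promoters of the same length carried. The broader CANNTG, which includes CAGCTG, was present in 6 of the 9 and in 70.6% of all promoters. Mymk had 4 such cores, 14 and 3 bases before the start and at bases 10 and 42 after it, and Cdh15 had 1. Both strands were searched for all motifs. The NFκB consensus (4.85% of all promoters) matched the Mymk promoter alone, 127 bases before the start, and the MEF2 consensus (2.97%) matched that of Cdh15, 53 bases before the start. The MCAT core CATTCC (14.0%) matched that of Jam3, 207 bases before the start, and the CArG box (1.55%) matched none of the 9. These matches describe letters within a short window only.

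The libraries were deep and even, with 29444155 to 29746863 read pairs counted on genes. Across the 15173 genes tested with edgeR's quasi-likelihood test, 694 (4.57%) passed a Benjamini-Hochberg adjusted p of 0.05. Higher levels after EDA-A2 made up 371 of them (2.45% of all tested) and lower levels 323 (2.13%), so that 53.5% of calls were higher, against 71.4% (485 higher and 194 lower) when libraries were scaled by total counts. All 4 genes checked for stimulation rose with all 4 libraries in the fit. The receptor gene Eda2r rose from 7354 ± 468 to 9342 ± 861 normalized counts, which are read pairs scaled to a common library size (SD, n = 2 libraries, log2 fold change 0.35 ± 0.08 SE, adjusted p = 0.0178 by edgeR), and Nfkbia, Nfkb2 and Nfkbie of the NFκB pathway rose by 1.43, 1.89 and 3.15 on the log2 scale. Eda2r no longer passed by edgeR with no filter beyond 1 count in total (adjusted p = 0.261), without EDA-A2 replicate 2 (0.25 on the log2 scale, adjusted p = 0.3) or without either control replicate (adjusted p = 0.371 and 0.249). The median log2 fold change of all genes tested was -0.002.

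In control myotubes the list spanned from one of the most abundant transcripts to none. On the TPM scale, which divides by exon length, Mymk led with a mean level of 1452 over both control libraries and Mymx followed at 238. Cdh2 (137 TPM) and Cdh15 (111 TPM) came next, and their library ranges did not overlap with those of their neighbours in the order. Myof (69.8 TPM) and Jam3 (68.1 TPM) did not differ beyond the spread between libraries. Jam2 stood at 32.1, Dock1 at 21.4 and Elmo2 at 19.2 TPM, while Adgrb1 had 0 or 1 count per library. With the longest transcript as the length in place of the union of exons, Myof (94.5 TPM) passed Cdh15 (78.8 TPM) and Elmo2 (27.6 TPM) passed Dock1 (21.1 TPM), and Mymk (1122 TPM) and Mymx (189 TPM) kept their places at the top.

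**Figure D1:**
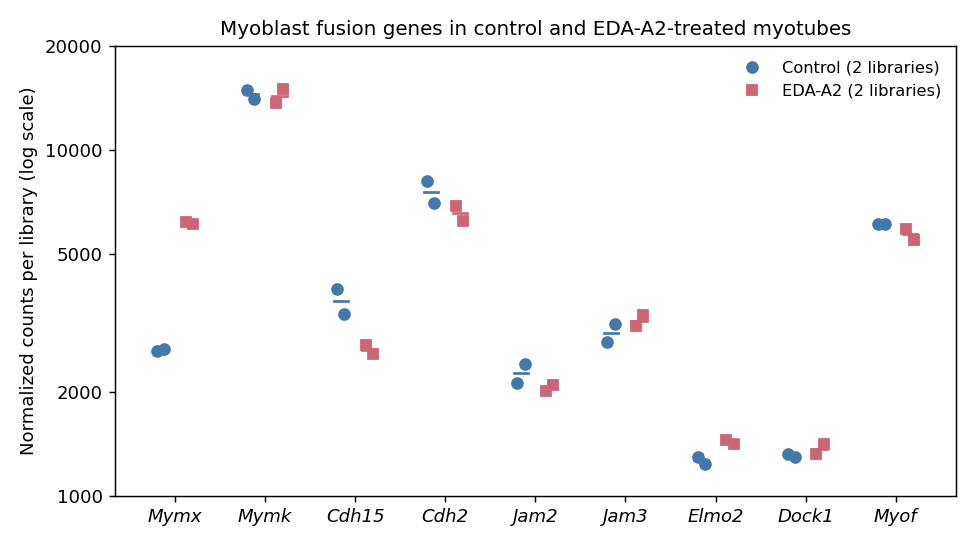
Normalized counts per library (log axis) of the 9 fusion genes that could be tested, with each of the 2 control and 2 EDA-A2-treated libraries as a point and a short line at each group mean. The treated Mymx points (6193 and 6119.7) lie far above the control points (2619 and 2652), while the groups of the other 8 genes overlap or lie much closer together.

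Mymx, the myomixer gene, lies on chromosome 17 from 45911239 to 45913028 on the minus strand (ENSMUSG00000079471, GRCm39). It had 2619 and 2652 normalized counts in control replicates 1 and 2, and 6193 and 6119.7 in EDA-A2 replicates 1 and 2. Both treated libraries were high, both control libraries were low, and libraries of the same condition nearly coincided. The means were 2636 ± 23.4 and 6156 ± 51.7 (SD, n = 2 each), a log2 fold change of 1.22 ± 0.07 (SE) or 2.34-fold. Its level was 234 and 241 TPM in control and 597 and 577 TPM in treated libraries. By fold change Mymx ranked 100 among the 15173 genes tested, at the percentile of 99.3.

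Mymk, the myomaker gene (ENSMUSG00000009214, chromosome 2, 26951627 to 26962228, minus strand), had 14938 and 14050.0 normalized counts in control and 13683 and 15013 in treated libraries. The highest and the lowest value both came from treated libraries, so the groups overlapped. Its log2 fold change was -0.01 ± 0.07, from 14494 ± 628 to 14348 ± 940.0 normalized counts. The sign of a difference this close to 0 depended on the scaling, since with total counts it was 0.04.

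Because both fusogen genes were counted in the same libraries, their ratio within a library is free of scaling between libraries. For every 100 Mymk counts there were 17.5 and 18.9 Mymx counts in control and 45.3 and 40.8 in treated libraries. The 2 conditions did not overlap in this ratio. On the TPM scale, Mymk was 6.34 and 5.89 times the level of Mymx in control and 2.45 and 2.73 times in treated myotubes. Mymk thus remained the more abundant transcript in all 4 libraries, by a smaller margin after EDA-A2.

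**Figure D2:**
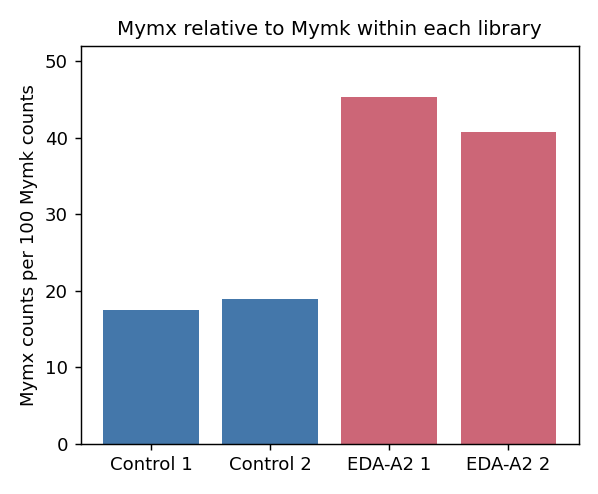
Mymx read counts per 100 Mymk read counts within each library (bars from 0), in 2 control and 2 EDA-A2-treated libraries. The control bars stand at 17.5 and 18.9 and the treated bars at 45.3 and 40.8.

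Among the adhesion genes, Cdh15 encodes M-cadherin, the cadherin typical of muscle precursors (ENSMUSG00000031962, chromosome 8, 123574705 to 123596048, plus strand). It had 3950.2 and 3351 normalized counts in control and 2721 and 2566 in treated libraries. Both treated libraries lay below both controls, and the controls were farther apart than the treated pair. From 3651 ± 424 to 2644 ± 109.6, the log2 fold change was -0.47 ± 0.08, or 0.72-fold. Cdh2 encodes N-cadherin, shared with nerve and heart (ENSMUSG00000024304, chromosome 18, 16700793 to 16942381, minus strand). It had 8109 and 7035 normalized counts in control and 6892 and 6236 in treated libraries. The gap between the groups was smaller than the gap between the controls, and the log2 fold change was -0.21 ± 0.08. Within libraries there were 48.7 and 47.6 Cdh15 counts per 100 Cdh2 counts in control and 39.5 and 41.2 after EDA-A2.

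Jam2 and Jam3 encode immunoglobulin-like proteins that bind each other across cell contacts. Jam2 (ENSMUSG00000053062, chromosome 16, 84570764 to 84623269, plus strand) had 2112 and 2402 normalized counts in control and 2010.4 and 2083 in treated libraries. The treated libraries were just below the lower control, with a log2 fold change of -0.14 ± 0.08. Jam3 (ENSMUSG00000031990, chromosome 9, 27005652 to 27066915, minus strand) had 2783 and 3136 normalized counts in control and 3086 and 3326 in treated libraries. Its groups overlapped, and the log2 fold change was 0.12 ± 0.08. There were 75.9 and 76.6 Jam2 counts per 100 Jam3 counts in control and 65.2 and 62.6 in treated libraries. Both genes overlap others on the opposite strand. Atp5pf covers 4.38% of the Jam2 exons, and Ncapd3 and the lncRNA Gm48796 cover 11.2% and 20.3% of those of Jam3. The strand setting of the counting is not given in the sources used here, so both values are uncertain to that extent.

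The engulfment genes were the least abundant of the list. Adgrb1 (ENSMUSG00000034730, chromosome 15, 74388044 to 74461314, plus strand), a phosphatidylserine receptor, had 1 and 0 counts in control and 1 and 1 in treated libraries. The floor set by 3 counts, which a 0 still permits, was 0.101 to 0.102 CPM at this depth, and Adgrb1 stayed under it, so no fold is given. Elmo2 encodes the ELMO scaffold of the Rac exchange factor complex (ENSMUSG00000017670, chromosome 2, 165129951 to 165168438, minus strand). It had 1292 and 1236 normalized counts in control and 1453 and 1407 after EDA-A2. Both treated libraries were above both controls, by a log2 fold change of 0.18 ± 0.08. Dock1 encodes the exchange factor itself (ENSMUSG00000058325, chromosome 7, 134272372 to 134775375, plus strand). It had 1323 and 1292 normalized counts in control and 1318 and 1408 in treated libraries. These values overlapped, with a log2 fold change of 0.06 ± 0.08.

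Myof encodes myoferlin (ENSMUSG00000048612, chromosome 19, 37887484 to 38032048, minus strand), the ferlin of fusing myoblasts. It had 6116 and 6112 normalized counts in control and 5922 and 5505 in treated libraries. On this scale the controls coincided and both treated libraries were lower, by a log2 fold change of -0.10 ± 0.07. In TPM the groups overlapped, with 69.2 and 70.4 in control and 72.3 and 65.7 in treated libraries.

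Of the 9 genes tested, Mymx passed the threshold as higher and Cdh15 as lower after EDA-A2, and 7 did not pass. The background was 2.45% higher and 2.13% lower over all genes tested, and because this contrast chose the list, nothing is read from the count. Groups of normalized counts did not overlap for 2 genes in the higher and 4 in the lower direction, where 22.8% and 22.2% of all genes tested did so, and 3 genes overlapped. In either direction that is 6 of 9, against 45.0% of all genes tested. The split between the directions depended on the scaling. On the TPM scale the groups of Cdh2, Jam2 and Myof, lower by normalized counts, overlapped. Those of Jam3 and Dock1 did not overlap in TPM, with both treated libraries higher. Aside from Mymx, the 8 log2 fold changes ran from -0.47 to 0.18 around a median of -0.06, 3 of them above and 5 below 0. The log2 fold change of Mymx was 1.28 above that median. The middle 90% of all genes tested lay between -0.41 and 0.48, and 7 of the 8 were within 0.25 of 0. Mymx did not move with the other fusion genes in these libraries, and its partner Mymk differed by less than the spread between replicates. In bulk RNA, fewer cells of a type and less RNA per cell cannot be told apart for any of these genes. Without either control replicate, edgeR called 0 genes in all, Mymx and Cdh15 included (2179 genes without replicate 1 and 2449 without replicate 2 at an unadjusted p under 0.05), while the log2 fold change stayed at 1.22 to 1.23 for Mymx and ran from -0.58 to -0.34 for Cdh15. With all 4 libraries, the DESeq2 Wald test called 294 genes higher and 271 lower. With no filter beyond 1 count in total, Cdh15 kept its log2 fold change of -0.47 and no longer passed.

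**Figure D3:**
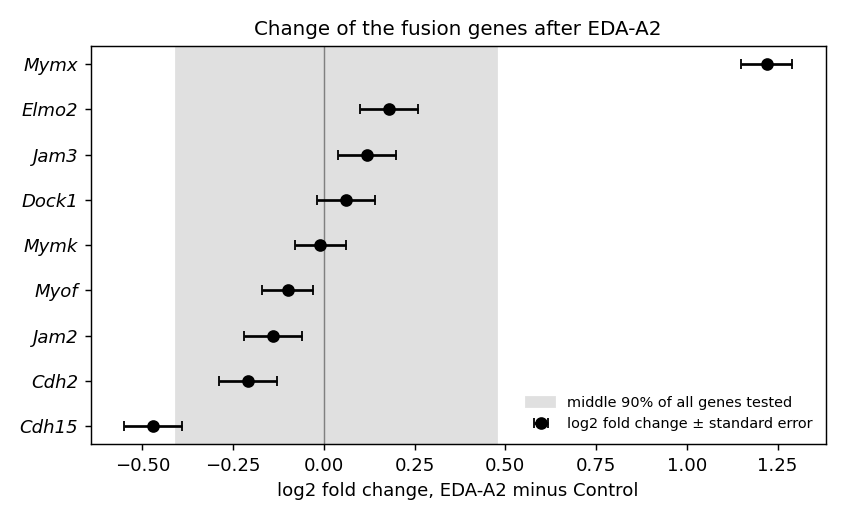
Log2 fold change (EDA-A2 minus control) with its standard error for the 9 fusion genes tested, 2 libraries per condition, over a grey band holding the middle 90% of all genes tested (-0.41 to 0.48). Mymx at 1.22 lies beyond the band, Cdh15 at -0.47 lies just below it, and the other 7 genes lie inside it.

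The 8 other genes tested were also set against Mymx by how their levels moved over the 4 libraries. The measure was the Euclidean distance between mean-centred log2 CPM (counts scaled to library size), not scaled for the size of the change. Elmo2 was the nearest of them, at 1.05, Mymk was at 1.25 and Cdh15 was the farthest, at 1.69. Among 2946 protein-coding genes with at least 2213 normalized counts on average, 192 were nearer to Mymx than Elmo2. The nearest were Nfkbia (0.224), Tnfaip3 (0.259), Synpo2 (0.276), Hivep1 (0.351) and Mvp (0.409). In control, mean normalized counts of Nfkbia (1321), Tnfaip3 (2112), Hivep1 (2001) and Mvp (1917) were below 2213. They passed this floor only through their treated libraries (means of 3554, 4265, 3674 and 3394). Elmo2, the mark for the 192, was under the floor in both conditions (1264 in control and 1430 in treated libraries). Nothing is read from the order of the nearest genes. These distances rest on 4 libraries and mostly reflect the size of the difference between the conditions.

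Each fusion gene was next placed within its own gene family, by its share of the family's mean TPM in control. Elmo2 made up 85.6% of the ELMO family, Dock1 61.3% of the Dock family members that pair with ELMO proteins, Myof 71.3% of the ferlins and Mymk 97.4% of its transmembrane family. Jam3 took 56.8% of the junctional adhesion molecule family. Cdh2 led the 11 cadherins compared with 35.7%, but with the longest transcript as the length Cdh13, a cadherin anchored by a lipid, led with 41.5%. Adgrb2, with 4.03 and 4.42 TPM in control and 3.54 and 3.64 TPM in treated libraries, held 99.6% of the family of Adgrb1. Among the paralogs tested that are not fusion genes of the list, Dock3 alone passed the threshold, which 4.57% of all genes tested did. Dock3 was 1 of 4 genes tested in its group. It fell from 240.0 ± 8.60 to 161 ± 2.48 normalized counts (SD, n = 2), or by -0.58 ± 0.14 on the log2 scale (adjusted p = 0.029, edgeR). The DESeq2 Wald test gave Dock3 an adjusted p of 0.0988, and by edgeR it did not pass with total counts (adjusted p = 0.0574), with no filter (adjusted p = 0.139) or without any 1 of the 4 libraries (adjusted p from 0.16 to 0.288). Cdh1 (log2 fold change -0.94, adjusted p = 0.0657 by edgeR) and Fer1l6 (-0.80, adjusted p = 0.0753 by edgeR) did not pass. Directions were mixed in the families, genes of the list included. Of 9 cadherins tested, 4 were above and 5 below 0, from -0.94 for Cdh1 to 0.37 for Cdh5. Of 3 junctional adhesion molecules tested, 2 were above and 1 below 0, and of 3 ferlins 0 were above and 3 below.

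A wider set of 69 genes with a role in fusion, in 6 lists by role, gave 63 genes that could be tested. Of these, 2 rose, 3 fell and 58 did not pass, against 2.45% higher and 2.13% lower of all genes tested. Their median log2 fold change was -0.04, with 24 above and 39 below 0, and the range from -0.80 to 0.53 ended well under the 1.22 of Mymx. The medians were -0.05 for 16 adhesion receptors, -0.03 for 6 genes of phosphatidylserine exposure and recognition, and -0.02 for 18 genes of Rac and actin. They were -0.14 for 7 genes of membrane repair, 0.06 for 11 secreted factors and receptors, and -0.23 for 5 inhibitors of fusion.

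Vcam1, an adhesion molecule that binds integrins, had 1191 and 1428 normalized counts in control and 1816 and 1961 in treated libraries. It rose by 0.53 ± 0.09 on the log2 scale (adjusted p = 0.0025, edgeR), and the groups did not overlap. Anxa1, which encodes a calcium-dependent phospholipid-binding protein, rose from 7236 ± 405 to 9259 ± 242 normalized counts (SD, n = 2), by 0.36 ± 0.07 (adjusted p = 0.0068, edgeR). Cav3, which encodes the caveolin of muscle, fell from 4760.3 ± 733 to 3137 ± 25.4, with a log2 fold change of -0.60 ± 0.09 (adjusted p = 0.000826, edgeR). Ehd1, a gene of endocytic recycling, fell from 4786 ± 693 to 3689 ± 128 (-0.38 ± 0.09, adjusted p = 0.0206, edgeR). Tmem182, listed as an inhibitor of fusion, fell from 7599 ± 513 to 5758 ± 9.41 (-0.40 ± 0.07, adjusted p = 0.00313, edgeR). In the list of Rac and actin 0 of 18 genes passed by edgeR, and the smallest p was that of Myo10, a filopodial myosin (log2 fold change 0.18, adjusted p = 0.167). In that of secreted factors and receptors 0 of 11 passed, and the smallest p was that of the calpain gene Capn1 (-0.24, adjusted p = 0.0854, edgeR). Without control replicate 1, without control replicate 2, or with no filter beyond 1 count in total, 0 of the 63 passed by edgeR in either direction, with 4 to 9 higher and 11 to 17 lower at an unadjusted p under 0.05. Anxa1 also failed to pass without EDA-A2 replicate 2 (adjusted p = 0.0882, edgeR) and Ehd1 without EDA-A2 replicate 1 (adjusted p = 0.0751, edgeR). The DESeq2 Wald test on all 4 libraries called 3 higher and 4 lower.

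**Figure D4:**
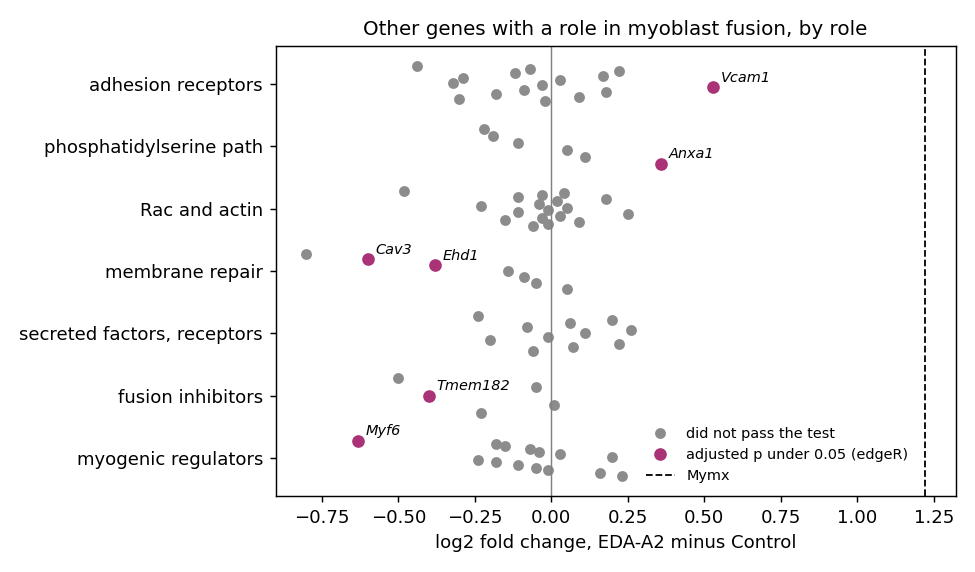
Log2 fold change (EDA-A2 minus control, 2 libraries per condition) of other genes with a role in fusion and of myogenic regulators, 1 point per gene tested, by role, with genes past the edgeR threshold coloured and named and a dashed line at Mymx. All points lie between -0.80 and 0.53, short of Mymx at 1.22.

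Of 14 regulators of myogenesis, the group that holds the factors acting on E-boxes, 0 rose, 1 fell and 13 did not pass. Over all genes tested, 2.45% passed as higher and 2.13% as lower. The median of the 14 was -0.06 on the log2 scale. The gene that fell was Myf6, the late myogenic factor MRF4, from 239 ± 18.0 to 155 ± 0.982 normalized counts (-0.63 ± 0.14, adjusted p = 0.0195, edgeR). With the DESeq2 Wald test its adjusted p was 0.0586, and by edgeR it did not pass with no filter (adjusted p = 0.132) or without any 1 of the 4 libraries (adjusted p from 0.122 to 0.288).

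Around Mymx on chromosome 17, 4 of the 9 protein-coding genes tested within 100 kb also passed as higher and 0 as lower by edgeR. Over all genes tested, 2.45% passed as higher and 2.13% as lower. The window was placed around Mymx with its rise known, so nothing is read from the count. The 4 by edgeR were Nfkbie (log2 fold change 3.15, adjusted p = 6.24e-10), Slc29a1 (0.81, adjusted p = 3.6e-06), Capn11 (2.46, adjusted p = 0.0012, from 6 and 15 to 66 and 55 counts) and Tmem63b (0.30, adjusted p = 0.0363). Capn11 and Tmem63b did not pass with no filter beyond 1 count in total (adjusted p = 0.086 and 0.291, edgeR), none of the 4 passed without either control replicate, where Capn11 was at 1.97 without replicate 1 and at 3.24 without replicate 2, and Tmem63b passed in none of the fits that left out 1 library (adjusted p from 0.177 to 0.303). Slc29a1 starts its annotation 505 bases beyond the end of Mymx on the same strand, and whether reads run from one into the other was not tested.

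**Figure D5:**
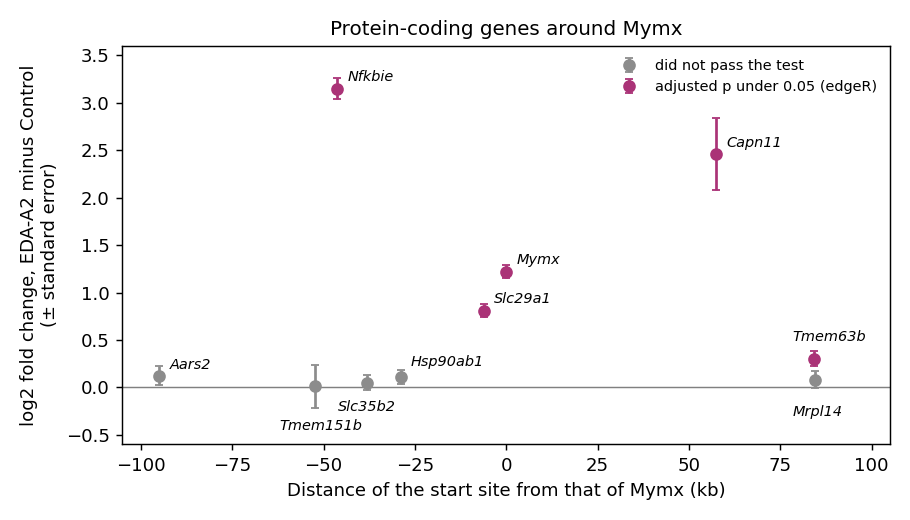
Log2 fold change with its standard error (EDA-A2 minus control, 2 libraries per condition) of Mymx and the 9 protein-coding genes tested within 100 kb, against the distance of each start site from that of Mymx in kb, negative towards lower coordinates. Nfkbie (3.15), Capn11 (2.46), Slc29a1 (0.81) and Tmem63b (0.30) passed the edgeR threshold, and the other 5 genes lie near 0.

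The cultures held differentiated myotubes and also dividing cells, and the make-up of the libraries bears on every level above. Of 9 myotube markers, 5 fell and 0 rose by edgeR, against 2.13% lower and 2.45% higher of all genes tested. All 9 log2 fold changes were below 0, with a median of -0.38. The summed level was 34683 and 33688 TPM in control and 25950.5 and 26174 TPM in treated libraries. The markers that fell included Myh3 (log2 fold change -0.57), the embryonic myosin, Acta1 (-0.52), skeletal actin, and Actn2 (-0.65), the actinin of the Z-disc. Cdh15 was lower in the same libraries and Mymx higher, and the part of this shift in either result was not tested. Of 7 markers of dividing cells 0 passed, with a summed level of 499 and 607 TPM in control and 587 and 571 TPM in treated libraries, and the first control replicate was the lowest. Of 8 myoblast markers, 5 could be tested and 0 passed, with summed levels of 563 and 562 TPM in control and 675 and 657 TPM in treated libraries. Most of that sum was Sdc4 (log2 fold change 0.19, adjusted p = 0.138 by edgeR), and Calcr was at 0. The median of the 5 was -0.13, with 3 below 0: Pax7 (-0.17) and Pax3 (-0.13), whose treated libraries lay below both controls, and Myf5 (-0.24), whose groups overlapped. Pax7, Pax3 and Myf5 were named after their values were seen. The part of these markers in the results was not tested.

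Markers of other cells were low or did not pass. Of 8 fibroblast markers, 6 were tested and 0 passed, with summed levels of 825 to 848 TPM in all libraries and with Lum and Thy1 at 0. Single markers were less even than the sum. In control replicates 1 and 2, Col1a1 had 220.2 and 123 TPM and Col3a1 had 607 and 711 TPM. The log2 fold changes ran from -0.46 for Col1a1 to 0.48 for Dcn, with 2 above and 4 below 0. Of 7 macrophage markers, 3 were tested and 0 passed. Their sum was 11.4 and 11.5 TPM in control and 17.3 and 13.5 TPM in treated libraries, with Ptprc and Adgre1 at 2 counts or fewer. All 3 tested had log2 fold changes above 0: Itgam 0.92, Mrc1 0.32 and Cd68 0.30. Itgam had 18 and 18 counts in control and 39 and 32 in treated libraries (adjusted p = 0.168 by edgeR). The groups of Itgam and Cd68 did not overlap, and those of Mrc1 did. T cell markers (0 of 4 tested) and endothelial markers (2 of 5 tested, 0 passed, sums of 1.89 to 2.60 TPM) were low. Over these lists and those of myoblasts and dividing cells, 5 genes had an unadjusted p under 0.05 by edgeR, and the DESeq2 Wald test called 0.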

How the data were processed

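RNA from mouse primary myotubes, sequenced in bulk, was analysed in 4 libraries, grouped by the treatment given in the labels (2 control, 2 EDA-A2). Per the labels and methods, the authors made stranded mRNA libraries, checked reads with FastQC 0.11.9 and MultiQC 1.12, trimmed them with Trim Galore 0.6.5, mapped them to GRCm39 with STAR 2.7.3a and counted them per gene with HTSeq 0.11.1. The deposited values are raw counts per Ensembl gene and library, each count a read pair, not normalized. The annotation release, the strand option and the test for differential expression are not given in the sources used here.

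The 5 HTSeq summary lines (12.2 to 13.0% of pairs) were left out. Counts were fitted in R 4.3.3 with edgeR 4.0.16 (TMM, filterByExpr at 10 counts and 15 in total, then glmQLFit and glmQLFTest) with no term but condition, and Benjamini-Hochberg adjustment over all genes tested at 0.05. Normalized counts are counts scaled by TMM library sizes. TPM used the union of annotated exons, and 52610 of the 53647 genes matched the GENCODE annotation of GRCm39, from which gene positions and promoters were also taken. Replicates differed by more than sampling noise (chi-square per gene 9.33 in control and 4.45 in EDA-A2). The steps were tested on simulated counts.

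The 10 genes, the gene lists and the tests were chosen with earlier results of these data known. Named genes were the 10, all their paralogs where a value bore on them, protein-coding genes within 100 kb of Mymx and 4 stimulation genes. Each list added up to 5 genes past the threshold by smallest p or otherwise the gene with the smallest p. The 5 genes nearest to Mymx by distance were also named. The rule for that nearest set asked for at least the mean of the 5 lowest of the 9 genes tested. Alternatives replaced TMM by total counts, by upper quartile factors or by the size factors of DESeq2 1.42.0, the test by the DESeq2 Wald test, and the filter by 1 count in total or by 10 counts in each library. Others added a replicate block, left out each library in turn or took the longest transcript as length. Fits without 1 library leave 1 sample in a condition, which is assumed to vary like the other condition. Protein sequences were not used here, and the promoter of Mymx and 1 list of cell type markers are not reported here.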

Additional observations from a re-analysis of the deposited data

How the results depend on the processing

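How many genes passed depended on the filter, the block and the libraries used. Over all genes, 371 passed as higher and 323 as lower; no filter beyond 1 count in total gave 64 and 22, total counts gave 194 lower, and leaving out 1 library gave 0 to 238 higher and 0 to 170 lower, 0 without either control replicate. Leaving out 1 library gave log2 fold changes of 1.22 to 1.23 for Mymx, -0.08 to 0.05 for Mymk and -0.58 to -0.34 for Cdh15, and 1.25 to 1.30 for Mymx above the median of the others. Mymk was 0.04 with total counts, and Cdh15 was -0.47, not past the threshold, with no filter. For the wider fusion genes, no filter gave 0 higher and 0 lower, and leaving out 1 library gave 0 to 2 higher and 0 to 3 lower. Around Mymx, no filter gave 2 higher and leaving out 1 library 0 to 3. Myotube markers gave 3 lower with no filter and 0 to 5 without 1 library, and markers of other cells gave 1 call with total counts and 0 to 1 without 1 library. Signs of small differences turned for Elmo1 (0.04) and Tmem8b (0.04) with total counts and for Cdh6 (-0.00) with no filter. Leaving out 1 library, ranges crossed 0 for Elmo3 (-0.46 to 0.19), Elmo1 (-0.11 to 0.09), F11r (-0.05 to 0.30), Cdh3 (-0.03 to 0.52), Cdh6 (-0.06 to 0.06), Pgap6 (-0.18 to 0.57), Tmem8b (-0.12 to 0.10), Col1a1 (-0.82 to 0.04), Tmem151b (-0.24 to 0.30), Slc35b2 (-0.02 to 0.12) and Mrpl14 (-0.03 to 0.19). The cause of these shifts was not tested. The correlation of same-numbered deviations over all genes tested was 0.0598. With 2 libraries per condition it cannot decide whether replicate numbers pair the libraries, which no source states. A replicate block gave 537 genes higher and 529 lower, against 371 and 323 without it. With the block 8 wider fusion genes were lower, and no call of the 9 fusion genes tested changed.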
